A study of Mus musculus with 12 samples.

Results

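Untreated mouse leukaemia cells labelled inv(16) were described from the 3 libraries of the PBS group. These libraries were chosen by their treatment label out of 12 libraries in the series. The cells, CMM-tetON-shStat3, are a mouse acute myeloid leukaemia line marked with GFP and mCherry that holds a doxycycline-inducible hairpin RNA against Stat3. NSG mice, an immunodeficient strain, received them intravenously, and intravenous PBS began once leukaemia cells made up about 1% of the blood. The labels give 6 daily treatments in one place and 3 treatments on alternate days in another. Spleens were taken 1 day later than the final treatment, and RNA of double-positive sorted cells was sequenced. The PBS mice received no doxycycline, but their cells carry the hairpin vector as those of all other groups do. The series uses 1 leukaemia line, and NSG hosts lack mature T, B and NK cells but keep erythroid and myeloid cells of their own. The labels do not say whether the libraries came from separate mice, so the SD given throughout measures the spread between 3 libraries, which may be technical.

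The human rearrangement inv(16) fuses the gene of the core-binding factor subunit CBFB to that of a smooth muscle myosin. In the mouse, Cbfb lies on chromosome 8 and Myh11 on chromosome 16, so the label names the human rearrangement. The fusion protein interferes with RUNX1 and blocks the maturation of blood progenitors. Early blood progenitors can follow several branches. GATA1 and its partners direct the erythroid, megakaryocyte and mast cell branches, whereas PU.1 (Spi1), C/EBP factors and IRF8 direct granulocytes and monocytes.

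Levels are RPKM, read counts scaled by gene length and library depth, so genes can be compared with each other within these libraries. The 3 libraries had an estimated 32670000, 32060000 and 30750000 reads (PBS 1, 2 and 3). In a gene of 1 kb, 3 reads would then come to 0.0918 to 0.0975 RPKM, a limit that covers counting error only. Of 33531 gene symbols, 11954 (35.7%) had a mean of at least 1 RPKM and 15588 (46.5%) a mean under 0.1, here called absent, of which 5316 were listed at 0 in all 3 libraries. PBS 2 stood apart for some groups of genes, though not over all genes, as described further on. In PBS 2, many genes of neutrophils, macrophages and late erythroid cells were higher than in PBS 1 and PBS 3. MHC class II genes and Y-linked genes were higher in it too. The sort was for cells with both GFP and mCherry, and the part of host cells in these values was not tested. Fewer cells of a type and less RNA per cell cannot be told apart in bulk libraries.

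**Figure D1:**
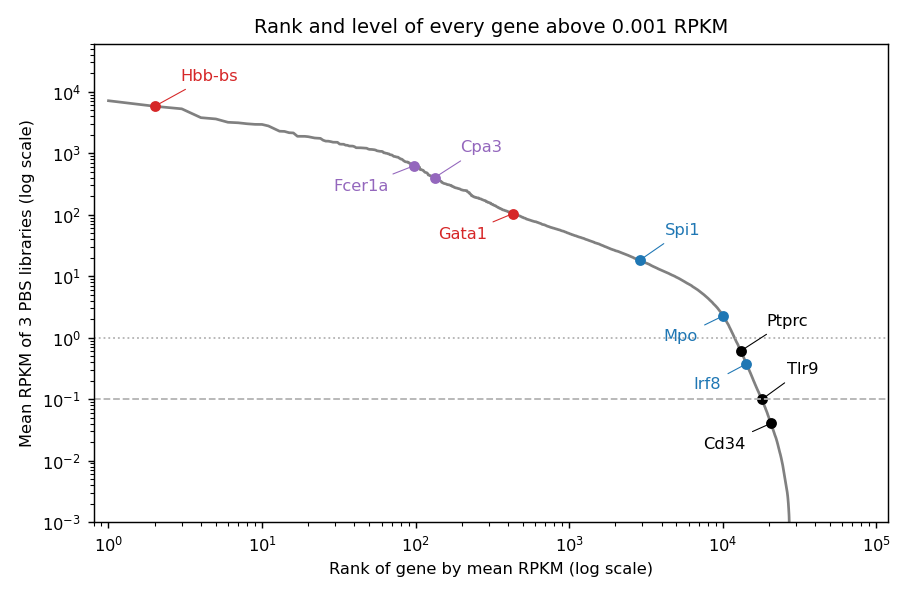
Mean RPKM of the 3 PBS libraries (vertical, log scale) against the rank of each gene (horizontal, log scale), with the levels of 1 and 0.1 RPKM as dotted and dashed lines. Hbb-bs, Fcer1a, Cpa3 and Gata1 lie above 100 RPKM, Spi1 and Mpo between 1 and 100, and Tlr9 and Cd34 under 0.1.

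The most abundant transcripts were those of mitochondria, adult globins and translation. The 10 highest genes held 10.9% ± 0.811 of the summed RPKM and the 100 highest 39.5% ± 0.713 (SD, n = 3). The mitochondrially encoded gene mt-Co1 came first, at 7162 ± 331 RPKM. Hbb-bs, an adult beta globin, was second, with 5010, 6847 and 5600 RPKM in PBS 1, 2 and 3. Hba-a2, an adult alpha globin, came next, with 4628, 6062 and 5172 RPKM. The 4 adult globin genes together held 4.22% ± 0.603 of the total, and each was highest in PBS 2. The embryonic globins Hbb-bh1 (0.339 ± 0.175 RPKM) and Hbb-y (0.268 ± 0.170) were far below them.

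Of the 30 highest symbols, 8 were mitochondrially encoded, 4 were adult globins and 17 were pseudogenes or predicted genes. Symbols annotated as pseudogenes held 33.5% ± 0.521 of the summed RPKM. Many copy ribosomal protein genes or mitochondrial genes almost exactly, and how their reads were shared out is not given in the labels. The predicted gene Gm10925 and mt-Atp6, for example, had 2956 ± 429 and 2946 ± 426 RPKM. Levels of ribosomal protein genes, of Gapdh (24.9 ± 1.45 RPKM) and of other genes with such copies are therefore uncertain. The alpha globins Hba-a1 and Hba-a2 and the beta globins Hbb-bs and Hbb-bt are also near-identical pairs.

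Once ribosomal protein genes, mitochondrially encoded genes, pseudogenes and predicted genes were set aside, lineage genes appeared among the 30 highest beside housekeeping genes. The housekeeping genes were led by the translation factor Eef1a1 (3798 ± 84.2 RPKM), Actb (1508 ± 31.2) and the chaperone Hsp90ab1 (1154 ± 32.8). Car1 and Car2, the carbonic anhydrases of red cells, were at 735 ± 43.9 and 405 ± 15.2 RPKM. Fcer1a, the alpha chain of the high-affinity IgE receptor, was at 630 ± 46.9 RPKM. Cpa3, the mast cell carboxypeptidase, was at 402 ± 35.6 RPKM. The antioxidant enzyme Gpx1 (621 ± 30.7), the ferritin chain Fth1 (329 ± 6.06) and Bex4 (359 ± 11.8) also belonged to these 30. Car1, Car2, Fcer1a and Cpa3 thus stood below Actb and near or above Tuba1b (630 ± 28.1) or Actg1 (336 ± 8.63).

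**Figure D2:**
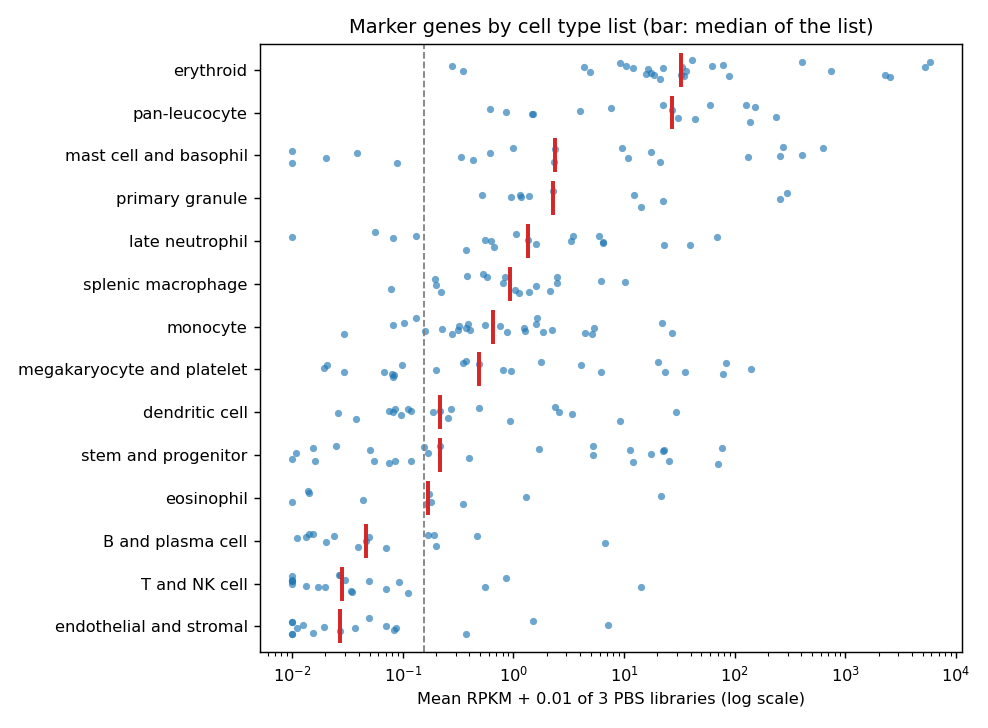
Mean RPKM + 0.01 of each marker gene (points, log scale) in 14 cell type lists, with the median of the list as a red bar and the median of all symbols as a dashed line. The erythroid list has the highest median, at 32.6 RPKM, and the endothelial, T and NK cell and B cell lists have medians under 0.1.

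Lineage character was read from marker lists, whose members are described by count and median because a level in 1 group has nothing to be tested against. The erythroid list had 25 of 27 measured members at 1 RPKM or more and a median of 32.6 RPKM, against 35.7% and a median of 0.147 over all symbols. Below the globins and carbonic anhydrases came Ermap (88.3 ± 1.65 RPKM), Alas2, which starts haem synthesis in red cells (78.7 ± 17.0), the anion exchanger Slc4a1 (62.9 ± 21.5) and the transferrin receptor Tfrc (35.0 ± 6.51). All 18 genes of haem synthesis and iron handling were at 1 RPKM or more. Alas2 exceeded Alas1, the form used outside red cells, by 38.0-fold ± 6.28 (SD of the ratio, n = 3). The red cell membrane gene Epb42 was lower, at 4.29 ± 1.48 RPKM. The erythroid list thus ran from the highest levels in the library to a few RPKM, with the embryonic globins as the 2 members under 1.

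Mast cell genes were split between a very high and an absent part. Of 20 members of the mast cell and basophil list, 11 were at 1 RPKM or more, 5 at 100 or more and 5 absent. Over all symbols, 35.7% were at 1 RPKM or more and 46.5% absent. Fcer1a had 581, 674 and 634 RPKM in PBS 1, 2 and 3. Ms4a2, the beta chain of the same receptor, had 260, 277 and 282 RPKM. Cpa3 had 361, 421 and 423 RPKM. Values of these genes were close in the 3 libraries, with PBS 1 the lowest for each. Il1rl1, the receptor for IL-33, was at 132 ± 10.9 RPKM. The granule proteoglycan Srgn, also listed under primary granule genes and broadly used, was at 258 ± 11.7. Hdc, which makes histamine, was at 21.2 ± 1.34, Cd200r3 at 10.7 ± 0.729 and Gzmb at 9.57 ± 1.32 RPKM. Apart from Cpa3 and Gzmb, the proteases of mast cell and basophil granules were low or absent. Mcpt1 was at 2.38 ± 0.259 RPKM, the chymase Cma1 at 0.984 ± 0.269 and the basophil protease Mcpt8 at 0.326 ± 0.130. The tryptase genes Tpsb2 and Tpsg1 were listed at 0 in all 3 libraries and Tpsab1 averaged 0.0101 ± 0.00879. Cpa3 was thus the one granule protease at the level of the IgE receptor chains, while chymase and tryptase genes were at a few RPKM or less. Fcer1a lies on chromosome 1 (173221284 to 173227214, minus strand), Ms4a2 on chromosome 19 (11615523 to 11623719, minus strand) and Cpa3 on chromosome 3 (20215620 to 20242181, minus strand), in GENCODE M21 on GRCm38.

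The megakaryocyte list was split in a similar way. Of 23 members, 9 were at 1 RPKM or more and 8 were absent. Over all symbols these shares were 35.7% and 46.5%, so the first was close to that of the list. The platelet glycoprotein Gp5 had 36.1, 35.6 and 35.1 RPKM, and Itga2b, the CD41 integrin chain, 23.4, 23.5 and 23.2. Both varied by little between libraries (coefficients of variation of 1.37% and 0.635%). Gp1ba was at 20.3 ± 0.697 RPKM, whereas its partner chains Gp1bb (0.950 ± 0.180) and Gp9 (0.190 ± 0.0809) were low. The platelet alpha granule genes Pf4 (0.0728 ± 0.0257), Ppbp (0.0874 ± 0.0579) and Vwf (0.0723 ± 0.00804) were absent. Surface genes of platelets were thus found on both sides of 1 RPKM, and these 3 granule genes were under 0.1.

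Promoter letters are shown for the most abundant mast cell genes, for Gp5 and for Hbb-bs, because the factors named further on include GATA1, which binds motifs with the core letters GATA. The windows are the 250 bases before the annotated start, from RefSeq on GRCm38.p6, 5′ to 3′ on the gene's strand. Capitals mark AGATAA or its complement TTATCT, and in Hbb-bs also CCACACCC, a motif of Krüppel-like factors. These 5 genes were chosen after their letters were seen.

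Fcer1a, chr1:173227230-173227479, minus strand: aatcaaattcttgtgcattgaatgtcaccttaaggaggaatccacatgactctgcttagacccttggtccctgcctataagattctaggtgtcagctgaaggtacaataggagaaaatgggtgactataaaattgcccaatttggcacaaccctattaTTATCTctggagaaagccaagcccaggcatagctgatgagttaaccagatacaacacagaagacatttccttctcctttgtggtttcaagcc
Ms4a2, chr19:11623720-11623969, minus strand: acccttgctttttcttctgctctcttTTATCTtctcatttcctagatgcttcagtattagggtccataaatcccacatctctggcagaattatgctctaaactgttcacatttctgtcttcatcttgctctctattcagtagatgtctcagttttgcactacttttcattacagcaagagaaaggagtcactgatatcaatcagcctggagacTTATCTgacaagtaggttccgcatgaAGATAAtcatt
Cpa3, chr3:20242182-20242431, minus strand: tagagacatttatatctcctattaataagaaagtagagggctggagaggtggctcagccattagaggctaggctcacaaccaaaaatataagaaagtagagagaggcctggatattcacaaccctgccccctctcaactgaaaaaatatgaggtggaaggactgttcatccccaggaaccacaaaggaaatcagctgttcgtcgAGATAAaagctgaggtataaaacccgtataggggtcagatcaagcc
Gp5, chr16:30310782-30311031, minus strand: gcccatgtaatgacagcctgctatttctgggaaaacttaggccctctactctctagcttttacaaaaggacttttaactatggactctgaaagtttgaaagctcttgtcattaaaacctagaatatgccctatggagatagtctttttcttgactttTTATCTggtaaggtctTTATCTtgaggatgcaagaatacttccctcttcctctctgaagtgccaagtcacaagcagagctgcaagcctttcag
Hbb-bs, chr7:103827929-103828178, minus strand: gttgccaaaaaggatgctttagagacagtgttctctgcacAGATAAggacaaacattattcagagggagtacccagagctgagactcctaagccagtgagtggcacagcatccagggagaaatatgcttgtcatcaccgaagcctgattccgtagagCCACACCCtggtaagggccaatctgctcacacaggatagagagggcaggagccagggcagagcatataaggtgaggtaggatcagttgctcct

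Ms4a2 held AGATAA at 3 places, which begin 224, 37 and 11 bases before the start, Gp5 at 2 places and the others at 1 place each. Over whole lists and the full window of 300 bases, which runs 50 bases past the start, AGATAA was found on either strand in 7 of 16 erythroid, 6 of 19 megakaryocyte and 5 of 12 mast cell genes with a single promoter entry. The share was 8.68% of all 12988 such genes and 7 of the 100 most abundant. It was 6.05% of genes at 1 RPKM or more and 11.7% of absent genes. Late neutrophil genes had 4 of 16, eosinophil genes 2 of 8 and endothelial and stromal genes 2 of 10. Primary granule genes had 0 of 10, splenic macrophage genes 0 of 11 and stem and progenitor genes 0 of 15. CCACACCC was found in 1 of 16 erythroid genes, against 3.80% of all. A TATAAA sequence was in 20 of the 100 most abundant genes, 6.54% of those at 1 RPKM or more and 15.5% of the absent ones. A C at the annotated start followed by 4 bases that are each C or T, the kind of start found in genes of the translation machinery, was in 13 of 57 ribosomal protein genes, against 2.49% of all. These matches are descriptions of letters and not of binding.

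Markers of mature myeloid cells were present at mostly low levels. At 1 RPKM or more were 9 of 11 primary granule and 11 of 19 late neutrophil genes, against 35.7% of all symbols. Among the primary granule genes, which promyelocytes use, the specific enzymes Mpo (2.26 ± 0.141 RPKM), Ctsg (1.16 ± 0.168), Elane (1.15 ± 0.319) and Prtn3 (0.940 ± 0.179) were near 1. The broadly used Calr (300 ± 24.2) and Srgn carried the summed level of that list. The monocyte list had 11 of 26 members at 1 RPKM or more and a median of 0.643. Fcgr3, an IgG receptor that mast cells also carry, led it at 26.8 ± 1.18 RPKM. Lyz2 came next, with 15.5, 30.4 and 20.2 RPKM in PBS 1, 2 and 3, which overlapped the values of Fcgr3. Csf1r, the receptor of monocyte growth factor, had 1.20, 2.19 and 1.33 RPKM, and Irf8, F13a1, Fcgr1 and Ly6c2 were under 1. Late neutrophil genes had a median of 1.34 RPKM, with S100a9 at 69.1 ± 24.0, S100a8 at 39.2 ± 14.6 and Ngp at 23.1 ± 8.68. Of 10 eosinophil genes, Siglecf stood alone at 21.4 ± 0.642 RPKM, with the granule proteins Epx (0.00396 ± 0.00686) and Prg2 (0.162 ± 0.0773) near or below the limit of detection. The median of the erythroid list, 32.6 RPKM, was thus above those of all these lists, while the mast cell median of 2.35 was close to the 2.26 of the primary granule list.

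Genes of lymphocytes and of stroma were mostly absent. Against 46.5% of all symbols, under 0.1 RPKM were 10 of 15 B and plasma cell genes, 16 of 20 T and NK cell genes and 14 of 17 endothelial and stromal genes. Cd3e, Trac and Gzma were listed at 0 in all 3 libraries. The members at 1 RPKM or more were Sdc1 (6.69 ± 0.231 RPKM), a proteoglycan also found outside plasma cells, Nkg7 (14.1 ± 2.52), also listed under primary granule genes, Tek (7.17 ± 0.579), the receptor for angiopoietins, and Kdr (1.50 ± 0.134), a VEGF receptor. Thy1 (0.843 ± 0.0717), Lck (0.538 ± 0.103), Ighm (0.461 ± 0.0310) and Pecam1 (0.362 ± 0.0891) lay between 0.1 and 1. Angpt1, which encodes a ligand of Tek, was itself at 12.1 ± 0.654 RPKM. Among 419 olfactory receptor symbols, 99.3% were absent, and all 15 immunoglobulin variable segments were. Of 51 T cell receptor variable segments, 48 were absent, while Trbv13-2 (chromosome 6, 41121396 to 41121832, plus strand), named after its values were seen, had 38.4, 39.9 and 35.7 RPKM.

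Stem and progenitor genes were mixed. Of 25 members, 11 were at 1 RPKM or more and 9 were absent, against 35.7% and 46.5% of all symbols. The receptor Kit had 18.0, 16.3 and 18.4 RPKM, and Bmi1, a Polycomb gene, was at 76.9 ± 6.76. Cd34, a surface marker of progenitors, averaged 0.0404 ± 0.00790 RPKM, and the receptor Flt3 0.109 ± 0.0220. Of 24 HOX cluster genes, 20 were absent, Hoxa9 averaged 0.0151 ± 0.00357 and Hoxb4 was the single one over 1 (1.70 ± 0.112). The pan-leucocyte list was mostly high, with 13 of 15 at 1 RPKM or more and Arhgdib first at 234 ± 5.82. Ptprc, which encodes CD45, was an exception at 0.429, 0.742 and 0.650 RPKM. The label acute myeloid leukaemia therefore goes with cells whose levels of Cd34, Flt3, Mpo and Ptprc were low. Most erythroid genes and part of the mast cell and megakaryocyte genes, such as Fcer1a and Gp5, were higher. Other members of the mast cell and megakaryocyte lists were low or absent. The fusion itself cannot be seen in values per gene. Cbfb was at 30.3 ± 1.84 RPKM and Myh11 at 1.59 ± 0.0819.

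**Figure D3:**
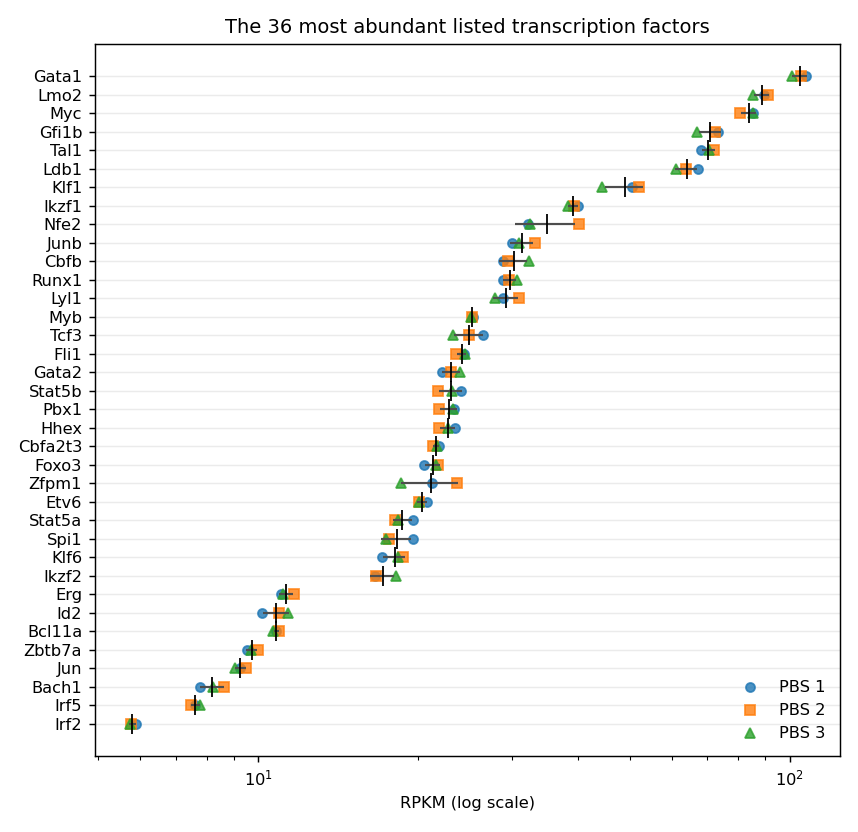
RPKM (log scale) of the 36 most abundant listed transcription factor genes in PBS 1, 2 and 3 (points), with the mean (tick) ± SD (line). Gata1 has the highest mean, and the 7 highest are all of the erythroid, megakaryocyte and core-binding list.

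Among the listed transcription factors, the GATA1 group was the most abundant. Of 33 erythroid, megakaryocyte and core-binding factors, with a median of 23.0 RPKM, 30 were at 1 RPKM or more, against 35.7% of all symbols. Gata1 (chromosome X, 7959260 to 7978071, minus strand) had 107, 105 and 101 RPKM. Lmo2, Tal1 and Ldb1, which form a complex with GATA1, were at 88.6 ± 2.98, 70.3 ± 1.98 and 64.0 ± 3.03 RPKM. The repressor Gfi1b was at 70.9 ± 3.39, Klf1, a main activator of red cell genes, at 49.0 ± 4.05, and Nfe2 at 34.9 ± 4.49. Gata2, the GATA factor of progenitors and mast cells, had 22.2, 23.0 and 24.0 RPKM, and Gata1 exceeded it 4.53-fold ± 0.317. Runx1 (29.7 ± 0.871), Fli1 (24.1 ± 0.472), Erg (11.3 ± 0.350), Myb (25.2 ± 0.0819) and Myc (83.8 ± 2.83) were also present. The ranges over 3 libraries did not overlap between Gata1 and Lmo2, while those of Tal1 and Gfi1b did.

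Factors of the monocyte and granulocyte branches were lower, with 17 of 29 at 1 RPKM or more and a median of 2.17. The share of all symbols at 1 RPKM or more was 35.7%. Spi1, which encodes PU.1, was at 18.2 ± 1.20 RPKM, and Gata1 exceeded it 5.74-fold ± 0.253. Cebpa averaged 0.329 ± 0.135, Cebpe 0.269 ± 0.0843 and Irf8 0.376 ± 0.0802 RPKM, and Gfi1 0.0624 ± 0.00437. Mitf, a mast cell factor, was at 2.31 ± 0.191. Of 16 lymphoid factors, 14 were absent, against 46.5% of all symbols. Mecom (0.000837 ± 0.00145 RPKM), Mef2c (0.0349 ± 0.0170) and Meis1 (0.158 ± 0.0110), regulators active in many other myeloid leukaemias, were under 0.2. Presence of Spi1 in these cells was thus not accompanied by comparable levels of Cebpa, Cebpe or Irf8. Other members of these families were higher but below Spi1, among them Cebpb (2.25 ± 0.239 RPKM) and Irf5 (7.61 ± 0.159).

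**Figure D4:**
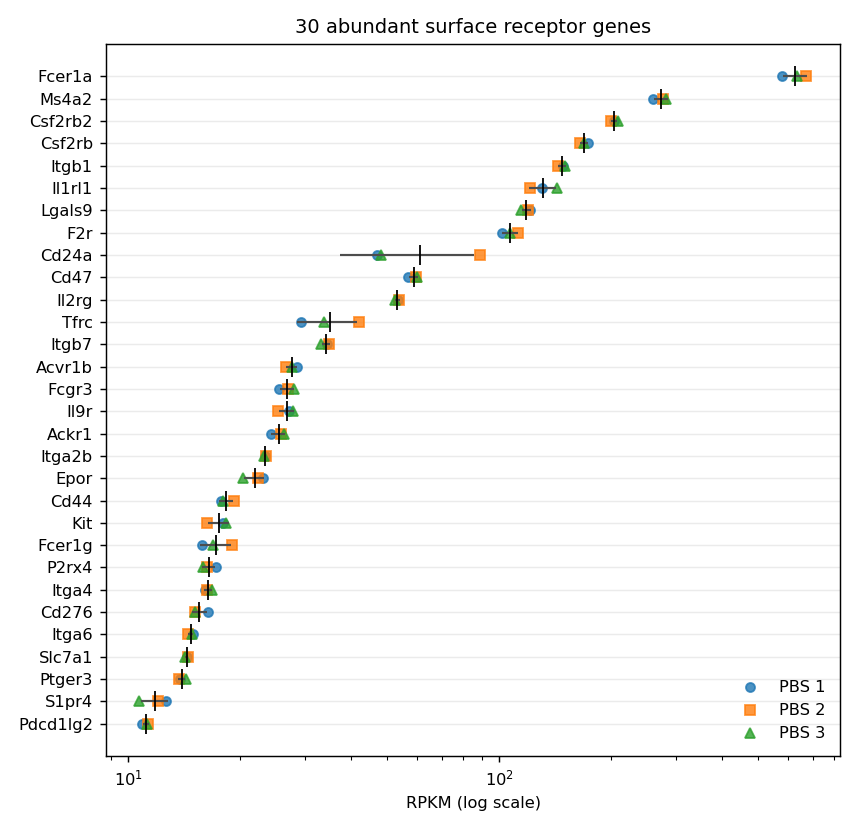
RPKM (log scale) of 30 abundant genes of the receptor lists in PBS 1, 2 and 3 (points), with the mean (tick) ± SD (line). Fcer1a, Ms4a2 and the beta chains Csf2rb2 and Csf2rb come first, and Cd24a and Tfrc have the widest spread.

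Receptor genes were ranked over 294 measured genes of 12 lists. These lists also hold ligands such as Lgals9 and Cd274 and cytosolic sensors such as Aim2, so the counts are not of surface receptors alone. Of the 294 genes, 117 (39.8%) were at 1 RPKM or more and 99 (33.7%) absent, against 35.7% and 46.5% of all symbols. Among the 294, 34 were at 10 or more and 9 at 100 or more. Those above 100 included, in falling order, Fcer1a, Ms4a2, Csf2rb2, Csf2rb, Itgb1, Il1rl1, Lgals9 and F2r. In 11 of the 19 steps between neighbours among the 20 highest, the values of the 3 libraries did not overlap. The values of Il1rl1 and Lgals9 overlapped.

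Of 42 growth factor and interleukin receptor genes, 22 were at 1 RPKM or more and 8 absent, against 35.7% and 46.5% of all symbols. Csf2rb, the beta chain shared by the receptors for IL-3, IL-5 and GM-CSF, was at 170 ± 4.05 RPKM and Csf2rb2, the mouse chain specific to IL-3, at 204 ± 4.06. These neighbouring genes on chromosome 15 are close copies, so reads could be split between them. The alpha chains that give the receptors their specificity were lower, with Il3ra at 4.80 ± 0.380, Csf2ra at 5.01 ± 0.320 and Il5ra at 0.153 ± 0.0288 RPKM. Csf2rb thus exceeded Il3ra 35.5-fold ± 1.93. Epor, the erythropoietin receptor, had 23.0, 22.4 and 20.4 RPKM. Il2rg, the common gamma chain, was at 53.2 ± 0.823 and Il9r at 26.7 ± 1.25 RPKM, while Il7r, Il2ra and Il2rb, also of receptors that use this chain, were absent. Il4ra, another partner, was at 5.03 ± 0.274 RPKM and Il21r at 0.133 ± 0.0571. Crlf2, which binds TSLP together with Il7r, was at 9.19 ± 0.620. Il1rap, the partner of Il1rl1, was at 2.83 ± 0.0190 RPKM, and Il1rl1 exceeded it 46.4-fold ± 3.55. Receptor chains of other cytokines included Il27ra (8.78 ± 0.602), Il17ra (8.21 ± 0.378) and Il12rb2 (5.19 ± 0.199). Csf3r, the receptor for G-CSF, was at 0.721 ± 0.133. Partner chains thus differed more in some complexes than in others, since Il2rg exceeded Il9r by 1.99-fold ± 0.122 and Ifnar2 exceeded Ifnar1 by 1.89-fold ± 0.0823.

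The chains of the IgE receptor were also unequal. Fcer1g, the signalling chain that it shares with other Fc receptors, had 15.8, 19.0 and 16.9 RPKM, and Fcer1a exceeded it 36.5-fold ± 1.03. Fcer1a exceeded Ms4a2 by 2.30-fold ± 0.108. The IgG receptor Fcgr2b, an inhibitory form, was at 2.83 ± 0.0540.

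Among adhesion receptors, Itgb1 led at 148 ± 3.42 RPKM, with Itga4 (16.4 ± 0.387), Itga6 (14.8 ± 0.221) and Itga5 (6.48 ± 0.597) as alpha chains. Itgb7, which also pairs with Itga4, was at 34.1 ± 0.838. Itgb2, the beta chain of leucocyte integrins, was at 7.60 ± 0.820, and its myeloid partner Itgam at 0.873 ± 0.264. Itgb3, which pairs with Itga2b, was at 6.15 ± 0.220 RPKM.

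Receptors for small mediators included F2r, the thrombin receptor (chromosome 13, 95601803 to 95618487, minus strand), with 102, 113 and 107 RPKM. Ackr1, the Duffy antigen receptor for chemokines, was at 25.4 ± 1.12. Purinergic receptors P2rx4 (16.5 ± 0.659), P2ry1 (10.6 ± 0.136) and P2rx1 (5.09 ± 0.240), the prostaglandin receptor Ptger3 (13.9 ± 0.300) and S1pr4 (11.8 ± 1.01) were also above 5. Signalling chemokine receptors were low, with Cxcr4 at 2.10 ± 0.162 and Ccr2 at 2.21 ± 0.336 RPKM the highest. Of 43 receptor tyrosine kinases, 22 were absent and 13 at 1 or more, against 46.5% and 35.7% of all symbols. These kinases were led by Kit, Erbb3 (10.5 RPKM) and Fgfr1 (10.5). Acvr1b, an activin receptor, was at 27.6 ± 0.973, and the Wnt receptor Fzd7 at 9.96 ± 0.140. The thrombin receptor thus stood well above the other members of this list.

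Of 26 innate sensors measured, 7 (26.9%) were at 1 RPKM or more, against 35.7% of all symbols. Absent were 9 of them, against 46.5% of all symbols. Aim2, a sensor of cytosolic DNA, was the highest at 9.50 ± 0.470. Tlr2 was at 1.59 ± 0.104, and no other Toll-like receptor reached 1. Tlr9, the receptor for CpG oligonucleotides used elsewhere in the series, had 0.0616, 0.170 and 0.0654 RPKM, with PBS 2 the highest. Interferon receptors were all above 1 except Ifnlr1, with Ifnar2 at 9.56 ± 0.388, Ifnar1 at 5.06 ± 0.0394 and Ifngr1 at 1.98 ± 0.317. Among death receptors, Tnfrsf21 was at 3.79 ± 0.659 RPKM, Tnfrsf10b at 1.03 ± 0.127, Tnfrsf1a at 0.585 ± 0.0802 and Fas at 0.229 ± 0.0655.

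Signals to T cells and phagocytes were headed by Lgals9, which encodes galectin-9 (119 ± 3.57 RPKM), Cd24a and Cd47, the signal against phagocytosis (58.8 ± 1.74). The checkpoint ligands Pdcd1lg2 and Cd274 were at 11.2 ± 0.223 and 7.52 ± 0.170. The costimulatory ligands Cd80 (0.847 ± 0.112) and Cd86 (0.217 ± 0.0129) were under 1. Cd24a had 47.0, 89.1 and 47.9 RPKM, with PBS 2 apart from the others.

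Inside the cell, 16 of 18 JAK, STAT and SOCS list members were at 1 RPKM or more, against 35.7% of all symbols. Jak2, the kinase of the erythropoietin receptor, was at 24.1 ± 0.176 and Jak1 at 26.8 ± 0.278. Stat5b and Stat5a were at 23.0 ± 1.14 and 18.7 ± 0.765 RPKM, and Stat3, the target of the hairpin, had 17.9, 16.8 and 16.9. The STAT5 target Cish was at 11.8 RPKM and Socs3, a STAT3 target, at 0.580 ± 0.141. All 27 mitosis and replication genes were at 1 or more, with Mki67 at 107 ± 4.64 and Pcna at 102 ± 2.50. Of survival genes, Mcl1 was at 57.4 ± 1.66 RPKM, Bcl2l1, the survival gene of maturing red cells, at 17.5 ± 1.16 and Bcl2 at 5.42 ± 0.366.

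The 3 libraries agreed closely over most genes. For the 11954 genes at 1 RPKM or more, the median SD of log2(RPKM + 1) was 0.0627 and the median coefficient of variation 5.05%. Pearson r across genes was 0.9949 to 0.9955 between libraries, and 24 to 34 genes differed by over 2-fold on that scale in each pair. Genes are not independent replicates, so these are descriptions. The least variable genes at 50 RPKM or more included Paics (77.2 ± 0.161), a purine synthesis enzyme, and Arpc5 (89.7 ± 0.270). The coefficients of variation of the adult globins were 13.7% to 18.2%, against a median of 4.88% over the 64 genes above 1000 RPKM. They were 14.5% for both Gm10925 and mt-Atp6, which also lie above 1000 RPKM.

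**Figure D5:**
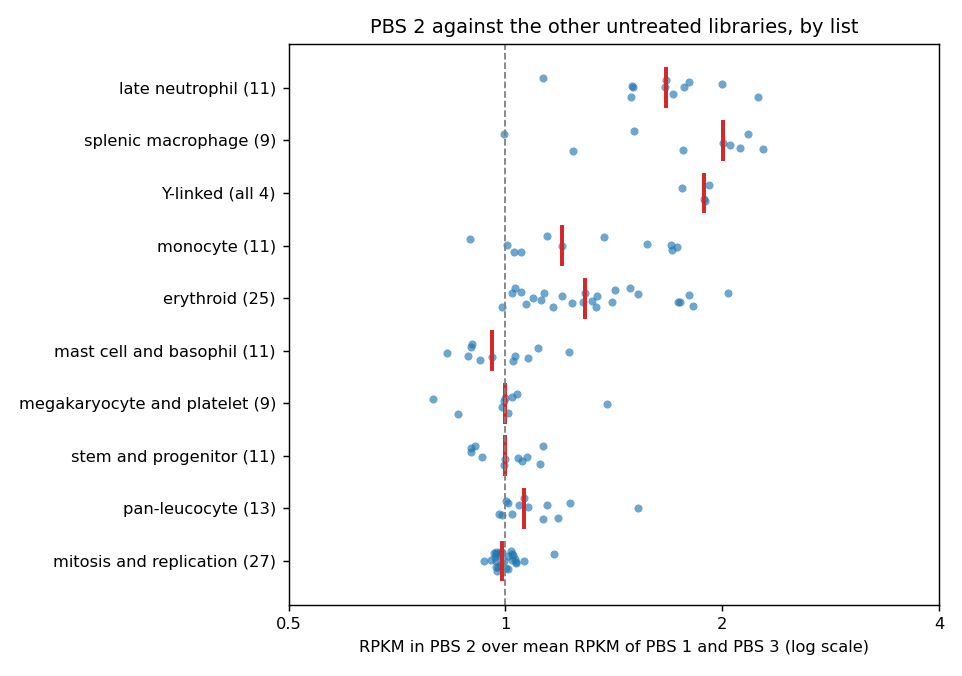
Ratio of the RPKM in PBS 2 to the mean RPKM of PBS 1 and PBS 3 (horizontal, log scale) for members of each list at 1 RPKM or more and for 4 Y-linked genes (points), with the median as a red bar and the dashed line at equal levels. Medians are 2.01 for splenic macrophage, 1.89 for Y-linked and 1.67 for late neutrophil genes, and 0.958 for mast cell genes. The Y-linked genes all have means under 1 RPKM.

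The genes that varied most had a shared pattern, seen after the values were known. Of the 15 most variable genes at 5 RPKM or more, 13 were highest in PBS 2, among them 5 late neutrophil and 2 erythroid list members. S100a8 had 25.1, 54.2 and 38.4 RPKM and Rhag, a red cell ammonium channel, 7.52, 15.8 and 7.98. With members kept by their mean over all 3 libraries, which PBS 2 itself raises, PBS 2 was the highest library for 10 of 11 late neutrophil, 8 of 9 splenic macrophage and 21 of 25 erythroid genes at 1 RPKM or more, against 30.3% of all such genes. With members kept by the mean of PBS 1 and PBS 3 alone, an alternative chosen after seeing the data, these counts were 9 of 10, 5 of 6 and 21 of 25, against 29.7% of all genes. The median ratio of PBS 2 to the mean of the other libraries was 1.67, 2.01 and 1.29 in these lists, in that order, and 1.69, 2.03 and 1.29 with members kept by PBS 1 and PBS 3. It was 0.958 for mast cell genes, 0.998 for megakaryocyte genes and 0.999 for all genes.

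MHC class II genes, from the dendritic cell list, were highest in PBS 2 as well. Their invariant chain Cd74 had 6.52, 12.4 and 8.83 RPKM, a ratio of 1.61. The class II chains H2-Ab1, H2-Eb1 and H2-Aa had ratios of 1.60, 1.59 and 1.38.

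Within the erythroid list the ratio differed by gene. It was 2.04 for Rhag, 1.74 for Slc4a1 and 1.74 for Epb42, which belong to the red cell membrane. It was 1.20 for Ank1 and 1.07 for Sptb, of the skeleton beneath that membrane. It was 1.24 to 1.34 for the adult globins, 1.05 for Car1, 1.03 for Car2 and 0.989 for Ermap. The late erythroid gene Cldn13, a claudin, had a ratio of 1.80.

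Y-linked genes were also higher in PBS 2. The Y-linked gene Eif2s3y had 0.574, 1.20 and 0.680 RPKM, and all 4 Y-linked genes were highest in PBS 2, by 1.76- to 1.91-fold. Their means were low, at 0.818 RPKM for Eif2s3y, 0.617 for Ddx3y, 0.107 for Uty and 0.0908 for Kdm5d. Kdm5d thus counts as absent. Xist, which is made from an inactive X chromosome, had 55.5, 52.5 and 66.1 RPKM, so that PBS 1 and PBS 2 were close and PBS 3 was higher. Defining genes of splenic macrophages were low in every library. C1qa had 1.94, 3.81 and 1.66 RPKM, and the summed level of the 18 splenic macrophage genes was 29.2, 41.9 and 25.9. The summed level of the 19 late neutrophil genes was 110, 224 and 155 RPKM in PBS 1, 2 and 3. The part of host cells in the values of these genes was not tested. Without PBS 2, S100a8 averaged 31.7 RPKM, Rhag 7.75 and Hbb-bs 5305, while Fcer1a averaged 607 and Gata1 104. A level above 100 RPKM was thus unchanged for Fcer1a and Gata1 without that library.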

How the data were processed

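RNA of sorted GFP- and mCherry-positive leukaemia cells was sequenced, and 3 PBS libraries out of 12 were used. The authors deposited 1 table per library with RPKM values for 33531 gene symbols. Per the submitters' processing notes, the tools included Partek 7.18.0723 and STAR 2.7.9 and the build was mm10, while the annotation and the counting are not stated. Values above 0 went down to 2.8e-45, as when reads are shared out between genes, so whole reads were not recovered.

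Depth was estimated from genes with 1 transcript in GENCODE M21 (GRCm38), as the step of 1 read in RPKM times length, refined by least squares. Of 4310 to 4365 genes per library, 73.2% to 73.6% then lay within 0.05 of a whole read. A step fixed beforehand would give 10% by chance. The step here was searched for so as to make this share largest, so 10% is not its chance level. Summed RPKM was 375733, 382550 and 370139. GENCODE M21 held 96.6% of these symbols.

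Means and SDs over 3 libraries were computed with Python 3.11.15 and pandas 2.3.3, and functions were checked on simulated data. No comparison between groups was made and no test was run. Symbols were sorted into 38 lists holding 757 genes, of which 740 were measured. The members, lists and named genes were chosen with earlier results of these data known. Genes named by rule were the 30 highest (with and without ribosomal protein, mitochondrially encoded and predicted genes and pseudogenes), any list member, the 15 most variable at 5 RPKM or more and the 10 least variable at 50 or more. Alternatives covered thresholds, rescaling, the pseudocount, the filter and leaving out each library. Promoter sequences came from RefSeq (GRCm38.p6), where 12988 symbols had a single entry. Some genes of the lists are not reported here by name and are left out of the receptor plot, but enter the counts.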

Additional observations from a re-analysis of the deposited data

How the results depend on the processing

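No comparison between groups was made, so there was no such result whose direction could change. Leaving out each library in turn gave 15537 to 15618 absent genes, 11931 to 11948 genes at 1 RPKM or more, and shares of the 10 and 100 highest of 10.6% to 11.4% and 39.3% to 39.9%. The median SD of log2(RPKM + 1) was 0.0469 to 0.0562 with 1 library left out, since it then rests on pairs. It was 0.07175 with a pseudocount of 0.1, 0.0388 with no filter, 0.0575 for genes at 5 RPKM or more and 0.06037 after median-of-ratios scaling. Without predicted genes, 6365 genes were absent. The 100 highest held 37.1% once ribosomal protein and mitochondrially encoded genes were left out. At 5 RPKM or more, 6 of 19 late neutrophil, 4 of 26 monocyte and 7 of 23 megakaryocyte genes were left. The counts were 23 of 27 for erythroid and 9 of 20 for mast cell genes. Over all symbols, 35.7% were at 1 RPKM or more and 14.5% at 10 or more. With a minimum of 0.5 RPKM or with RPKM rescaled to a fixed total, counts for these 5 lists stayed within 1.5 times their counts. Of 142 values for the other 33 lists, 10 moved by more than 1.5 times. No paired analysis was possible because 1 group was described and no test was run. Depth limits what can be said of genes under about 0.1 RPKM.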
